A study of Mus musculus with 6 samples.

Results

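The genes described here have roles in or around the oxidation and removal of 5-methylcytosine. They are the TET dioxygenases Tet1, Tet2 and Tet3 and the CXXC zinc finger genes Cxxc4 and Cxxc5. With them stand the isocitrate dehydrogenases Idh1 and Idh2 and the DNA glycosylases Tdg, Smug1 and Mbd4. These genes were chosen by symbol, and all 10 were found among the 23361 gene symbols of an expression table from mouse hippocampus. The tested mice were homozygous for the Tet1Δe4 allele, whose name marks a deletion of exon 4 of Tet1 (3 libraries), and the mice they were set against were Tet1+/+ (3 libraries). Both genotypes had received electroconvulsive shock, a current through the ears of 18 mA at 100 Hz that evokes a seizure, and whole hippocampi were taken 1.5 to 2 hours afterwards. No strain, age or targeting construct is given in the labels, and unshocked mice were not analysed here, so no value below measures a response to the shock. The labels do not state that each library came from a separate mouse, so the p-values measure the spread between these libraries, which may be partly technical.

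TET enzymes use iron, oxygen and 2-oxoglutarate to convert 5-methylcytosine stepwise to 5-hydroxymethylcytosine, 5-formylcytosine and 5-carboxylcytosine. TDG cuts out 5-formylcytosine and 5-carboxylcytosine, and base excision repair then restores an unmethylated cytosine. Neurons carry far more 5-hydroxymethylcytosine than most cells, and in mouse hippocampus Tet1 has been tied to memory and to the expression of activity-regulated genes.

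The deposited values are FPKM, fragment counts divided by transcript length and by the total mapped in each library, so levels of different genes can be set side by side, while the read depth behind them is unknown. Tests used limma, a moderated linear model, on log2(FPKM + 1), with Benjamini-Hochberg adjustment over the 12533 genes that averaged at least 1 FPKM and a threshold of 0.05. The log2 differences below are Tet1-deficient minus wild-type on that scale, which understates the change of genes near 1 FPKM. Of the members 9 passed this level filter. Tet1 did not, and its values come from the same model fitted to the 19123 genes above 0. The first principal component, with 53.3% of the variance, set Tet1-deficient replicate 1 and wild-type replicate 1 apart from the other 4 libraries. Wild-type replicate 1 was also the one female library by its expression, with Xist at 63.5 FPKM and Ddx3y at 0.0381 FPKM, against Xist at 0.0389 to 0.202 FPKM and Ddx3y at 16.7 to 35.2 FPKM in the others, so sex and this library cannot be told apart. All 70 listed markers of hippocampal and neighbouring cell types and of seizure response that the table holds were above 0 in every library.

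No TET gene or partner changed between the genotypes by the limma threshold: 0 of the 10 passed (adjusted p 1.00 for each). In the same comparison 0.0319% of all tested genes were called, and 0.0209% in the fit over all genes above 0 that holds Tet1. At an unadjusted p under 0.05 the count of members was again 0, against 1.36% of tested genes. Among the members 6 had a positive and 4 a negative log2 difference, with a median of 0.02 over the 9 tested, against 0.01 over all tested genes. In 2 members, Tet2 and Mbd4, the libraries of the genotypes did not overlap, which held for 4.13% of tested genes (1.91% higher and 2.21% lower in Tet1-deficient libraries). The median size of the log2 difference, whatever its sign, was 0.12 over the 9 members and 0.05 over all tested genes, and no test was made of that contrast.

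**Figure D1:**
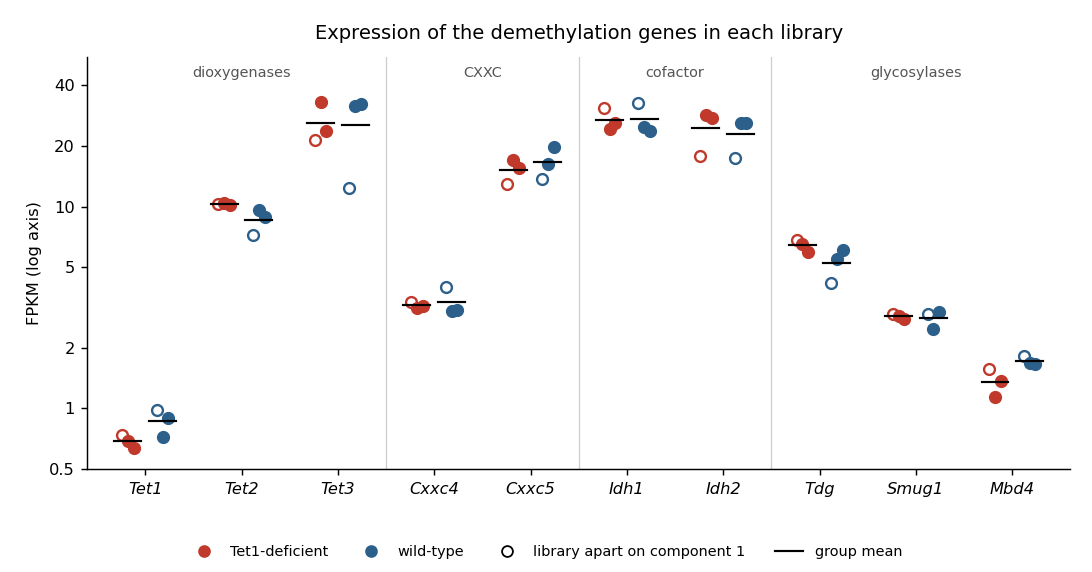
FPKM on a log axis for the 10 genes, grouped by role, in 3 Tet1-deficient libraries (red) and 3 wild-type libraries (blue). Open points are the 2 libraries that lie apart on the first principal component and black bars are group means. Tet2 separated the genotypes upward and Mbd4 downward. In Tet3, Cxxc4, Cxxc5, Idh1, Idh2 and Smug1 the SD within each genotype exceeded the difference between the group means.

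Tet1, the gene targeted in these mice, was the scarcest member. It measured 0.740, 0.685 and 0.638 FPKM in the Tet1-deficient libraries, against 0.977, 0.718 and 0.897 FPKM in the wild-type libraries. One wild-type library lay within the Tet1-deficient range, so the groups overlapped, and the Tet1-deficient mean was 79.6% of the wild-type mean. The log2 difference was −0.14 (95% interval −0.31 to 0.02, unadjusted p = 0.0810), and an exact two-sided permutation test of the means gave p = 0.2, where 0.1 is the smallest that 3 libraries against 3 allow. The level stood at the 32.3rd percentile of genes above 0.

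What a gene-level value can say about the deletion depends on how much of the transcript is lost. In the GENCODE M21 annotation (mm10) Tet1 lies on the minus strand of chromosome 10 from 62804570 to 62908996. Transcript Tet1-201, which counts its 11 exons from the first coding one, has exon 4 at chr10:62833538-62833628. The labels do not say which transcript numbers the deleted exon, so this assignment rests on that numbering. The exon spans 91 nucleotides of a transcript of 13986, or 0.651% of its length. It is shown because the FPKM of Tet1 is read against its length, and it is given in capitals with 15 bases of exons 3 and 5 on either side, in the sense of the transcript:
Tet1 exon 4 with flanks: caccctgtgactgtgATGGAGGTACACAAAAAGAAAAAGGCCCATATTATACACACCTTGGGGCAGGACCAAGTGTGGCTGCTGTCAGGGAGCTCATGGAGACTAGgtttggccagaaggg
Tet1 exon 3 joined to exon 5: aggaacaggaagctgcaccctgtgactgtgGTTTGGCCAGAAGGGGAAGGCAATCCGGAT
In the second line the capitals are the first 30 bases of exon 5. Because 91 is not a multiple of 3, reading on from exon 3 into exon 5 shifts the frame and meets a stop 13 codons after exon 3, at 1386 of the 2007 codons of the full reading frame. The catalytic domain of TET1 lies at the C-terminal end of the protein. A transcript that lacks only these 91 nucleotides would, where it is present, still be counted over the rest of its length. Whether such a transcript is as stable as the full one was not tested, so the FPKM of Tet1 is no check of the genotype labels.

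Tet2, which has lost the CXXC domain of its relatives and is recruited to DNA by partners, was higher in Tet1-deficient hippocampus by a margin that did not pass the test. It measured 10.3, 10.5 and 10.2 FPKM in the Tet1-deficient libraries, against 7.26, 9.57 and 8.92 FPKM in the wild-type libraries. Every Tet1-deficient library exceeded every wild-type one, and the Tet1-deficient values were the tighter of the 2 groups, at 10.3 ± 0.142 FPKM against 8.58 ± 1.19 FPKM (SD, n = 3 each). The log2 difference was 0.25 (95% interval −0.02 to 0.51, unadjusted p = 0.0638), the 210th smallest p of all tested genes. Without wild-type replicate 1, the lowest library and the female one, it was 0.14 (unadjusted p = 0.161). The summed FPKM of 5 neuronal markers separated the genotypes narrowly. It was 3527, 3195 and 3220 in Tet1-deficient and 3174, 3036 and 2888 in wild-type libraries. Wild-type replicate 1, the lowest in Tet2, thus had the highest neuronal sum of the wild-type libraries. The sums for dentate granule cells, CA1 and CA3 pyramidal cells and interneurons overlapped between the genotypes. The part of the neuronal sum in the Tet2 value was not tested. In bulk tissue, fewer cells of a type and less RNA per cell cannot be told apart.

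Tet3, the most abundant TET gene of these libraries, showed the widest spread of all members and no difference between genotypes beyond it. It measured 21.5, 33.0 and 23.8 FPKM in the Tet1-deficient libraries, against 12.3, 31.6 and 32.2 FPKM in the wild-type libraries. The highest and lowest library differed 2.68-fold, and both genotypes held high and low libraries. Its residual SD of 0.58 on the log2 scale ranked at the 98.9th percentile of tested genes, and the log2 difference of 0.13 had a 95% interval from −0.74 to 1.00 (unadjusted p = 0.734). A ratio of FPKM + 1 from 0.598 to 2.00 therefore lies within the interval. Leaving out wild-type replicate 1 gave a log2 difference of −0.30 (unadjusted p = 0.149), and the 4 libraries that lie together gave −0.18. The non-coding gene B230319C09Rik overlaps Tet3 on the other strand and measured 0.0467 to 0.272 FPKM. Whether reads were counted by strand is not stated, and its part in the Tet3 value was not tested.

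Tet3 made up most of the summed FPKM of Tet1, Tet2 and Tet3 in every library, from 59.9% to 76.7%. Its share was 66.0% and 59.9% in the 2 libraries apart on the first component, against 68.7% to 76.7% in the other 4. The part of base composition, described further below, in these shares was not tested. The share of Tet1 was 2.27%, 1.55% and 1.85% in Tet1-deficient and 4.75%, 1.71% and 2.13% in wild-type libraries. That of Tet2 was 31.7%, 23.7% and 29.4% in Tet1-deficient and 35.3%, 22.8% and 21.2% in wild-type libraries. The summed FPKM was 37.1 ± 6.23 in Tet1-deficient and 34.8 ± 12.4 in wild-type libraries (SD, n = 3 each). The shares of all 3 genes overlapped between the genotypes, and the total followed Tet3. Wild-type replicate 1, with 20.6 FPKM, had the smallest sum and the largest shares of Tet1 and Tet2.

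**Figure D2:**
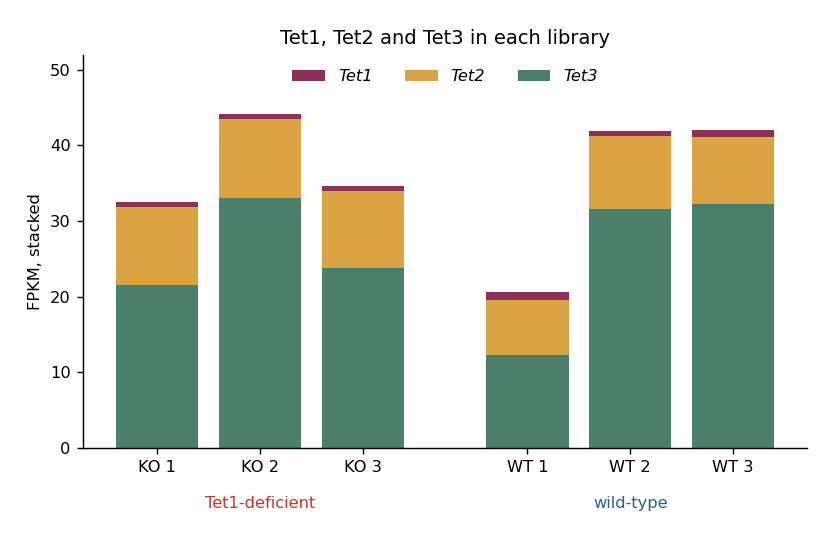
Stacked FPKM of Tet1, Tet2 and Tet3 in each library, Tet1-deficient (KO) at the left and wild-type (WT) at the right. Tet3 fills most of each bar, the Tet2 segment is 10.2 to 10.5 FPKM high in the 3 Tet1-deficient libraries, and wild-type replicate 1 has the shortest bar.

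Cxxc4 and Cxxc5 encode small proteins with the CXXC zinc finger, which binds unmethylated CpG, and both can reduce TET2 protein. Cxxc4 descends from the DNA-binding part of an ancestral Tet2 gene. It measured 3.38, 3.14 and 3.23 FPKM in the Tet1-deficient libraries, against 3.98, 3.04 and 3.07 FPKM in the wild-type libraries. The values interleave, with the 2 libraries apart on the first component the highest, and the log2 difference was −0.03 (95% interval −0.29 to 0.23). Cxxc5, also a feedback regulator of Wnt signalling, measured 12.9, 17.0 and 15.6 FPKM in Tet1-deficient and 13.7, 16.3 and 19.7 FPKM in wild-type libraries. Its log2 difference was −0.12 (95% interval −0.49 to 0.26), and the lowest library of each genotype was replicate 1.

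Idh1 and Idh2 supply 2-oxoglutarate, Idh1 in the cytosol and peroxisomes and Idh2 in mitochondria. Idh1 measured 30.8, 24.1 and 26.0 FPKM in the Tet1-deficient libraries, against 32.8, 24.7 and 23.7 FPKM in the wild-type libraries. Idh2 measured 17.9, 28.3 and 27.4 FPKM in the Tet1-deficient libraries, against 17.4, 25.8 and 25.8 FPKM in the wild-type libraries. In both genotypes replicate 1 was the highest for Idh1 and the lowest for Idh2. Idh2 over Idh1 was therefore 0.580 in Tet1-deficient replicate 1 and 0.530 in wild-type replicate 1, but 1.17 and 1.05 in the other Tet1-deficient and 1.04 and 1.09 in the other wild-type libraries. The log2 difference between genotypes was 0.0026 for Idh1 (95% interval −0.36 to 0.37) and 0.08 for Idh2 (95% interval −0.44 to 0.61). When the library split entered the model as a term, which was decided on after seeing the split, the intervals narrowed to −0.13 to 0.13 for Idh1 and −0.02 to 0.19 for Idh2.

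Tdg, the glycosylase that removes 5-formylcytosine and 5-carboxylcytosine, was higher in Tet1-deficient hippocampus by a margin that did not pass the test. It measured 6.83, 6.50 and 5.99 FPKM in the Tet1-deficient libraries, against 4.17, 5.47 and 6.06 FPKM in the wild-type libraries. The lowest Tet1-deficient library lay just under the highest wild-type one, so the groups overlapped. The mean was 6.44 ± 0.424 FPKM in Tet1-deficient and 5.23 ± 0.966 FPKM in wild-type libraries (SD, n = 3 each), with a log2 difference of 0.27 (95% interval −0.05 to 0.58, unadjusted p = 0.0871). Without wild-type replicate 1 the difference was 0.14 (unadjusted p = 0.235), and in the 4 libraries that lie together 0.10 (unadjusted p = 0.278).

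The Tdg value may also hold reads of its copies. Tdg occupies 82629828 to 82650799 on the plus strand of chromosome 10, and the processed pseudogene Gm9855 occupies 42054113 to 42055306 on the minus strand of the same chromosome. The coding sequence of Tdg matches Gm9855 at 99.2% identity over 1191 of 1263 nucleotides, with 9 mismatches and 0 gaps. The stretch where the mismatches are densest, coding bases 1114 to 1173, is shown as an example of how alike the sequences are, with the 4 of the 9 differing bases that fall there in capitals (GRCm38):
Tdg: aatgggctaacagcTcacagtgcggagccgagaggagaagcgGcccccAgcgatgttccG
Gm9855: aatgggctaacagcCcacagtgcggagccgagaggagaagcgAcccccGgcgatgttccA
Gm9855 measured 9.53, 10.3 and 8.83 FPKM in Tet1-deficient libraries, against 13.2, 10.9 and 9.27 FPKM in wild-type libraries, so the copy had higher FPKM than Tdg itself in every library. Its log2 difference was −0.19 (unadjusted p = 0.204). Wild-type replicate 1 held both the lowest Tdg and the highest Gm9855 value. Another pseudogene, Tdg-ps, matches the Tdg transcript at 98.7% over 84.8% of its length and is not in the table. Glt8d2, a glycosyltransferase gene that overlaps the end of Tdg on the opposite strand by 367 nucleotides, measured 2.75 ± 0.280 FPKM in Tet1-deficient and 3.51 ± 0.386 FPKM in wild-type libraries (SD, n = 3 each), without overlap between the groups (log2 difference −0.27, adjusted limma p 1.00). How reads were divided among these genes is not given in the sources used here, so the level of Tdg is uncertain.

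Smug1, which removes 5-hydroxymethyluracil and uracil, was the steadiest member, with a coefficient of variation of 6.72% over the 6 libraries. It measured 2.93, 2.86 and 2.76 FPKM in the Tet1-deficient libraries, against 2.93, 2.48 and 3.01 FPKM in the wild-type libraries. All 3 Tet1-deficient values fell inside the wild-type range, and the log2 difference of 0.02 had a 95% interval from −0.20 to 0.24.

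Mbd4, a methyl-CpG-binding protein that removes thymine and uracil from mismatches at CpG sites, was lower in Tet1-deficient hippocampus by a margin that did not pass the test. It measured 1.56, 1.13 and 1.36 FPKM in the Tet1-deficient libraries, against 1.81, 1.67 and 1.67 FPKM in the wild-type libraries. Every Tet1-deficient library lay below every wild-type one, and the Tet1-deficient mean was 78.7% of the wild-type mean. The log2 difference was −0.21 (95% interval −0.45 to 0.03, unadjusted p = 0.0753). It kept this sign in each alternative fit that could change the difference, from −0.33 to −0.14, and its adjusted p ranged from 0.361 to 1.00 over all fits. The −0.33 came with a pseudocount of 0.1 FPKM, which is another scale. With 1 FPKM the lowest was −0.27, without Tet1-deficient replicate 1. In the 4 libraries that lie together it was −0.25 (unadjusted p = 0.0457, where 3.86% of tested genes were under 0.05), and with the library split as a term −0.21 (unadjusted p = 0.0372, where 6.77% were). The other member under an unadjusted p of 0.05 with that term was Tet2 (unadjusted p = 0.0160). Adjusted over all genes, 0 members passed in either fit.

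**Figure D3:**
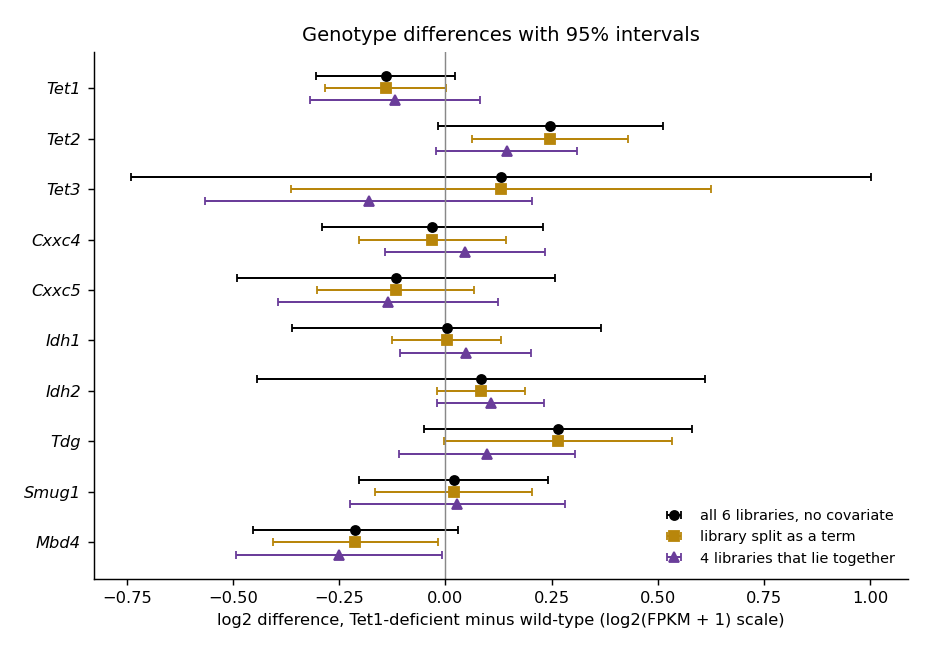
Log2 difference of each gene, Tet1-deficient minus wild-type, with its 95% limma interval: all 6 libraries (black circles), with the library split as a term (gold squares) and in the 4 libraries that lie together (violet triangles). Tet3 has the widest interval, from −0.74 to 1.00, and in the fit of all 6 libraries those of Tet1, Tet2, Tdg and Mbd4 lie mostly to one side of 0.

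By mean FPKM over the 6 libraries the order was Idh1 (27.0), Tet3 (25.7), Idh2 (23.8), Cxxc5 (15.9), Tet2 (9.45), Tdg (5.84), Cxxc4 (3.31), Smug1 (2.83), Mbd4 (1.53) and Tet1 (0.776). The first 3 genes could not be ordered, since Idh1 exceeded Tet3 in 3 of 6 libraries and Tet3 exceeded Idh2 in 4 of 6. Idh2 exceeded Cxxc5 in 6 of 6 libraries, though their ranges overlapped. From Cxxc5 downward the values of neighbouring genes did not overlap, so Tet2 was above Tdg and Mbd4 above Tet1 in each library of both genotypes. The place of Tdg in this order carries the doubt about its copies. The part of base composition in the order of the levels was not tested.

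The libraries that lie apart on the first principal component also stood out in some of the members. In 5 of the 10, Tet3, Idh1, Idh2, Cxxc4 and Cxxc5, replicate 1 of both genotypes lay outside the range of the other 4 libraries. All 5 are among the 9 tested members, and the same held for 63.5% of all tested genes. In size, the log2 difference of these 2 libraries from the other 4 exceeded that between the genotypes in 6 members, while in Tet1, Tet2, Tdg and Mbd4 the genotype difference was the larger. The 2 libraries averaged 16.9 FPKM of Tet3, against 30.2 FPKM in the other 4, and 17.6 FPKM of Idh2, against 26.8 FPKM in the other 4. They averaged 13.3 FPKM of Cxxc5, against 17.1 FPKM in the other 4. Idh1 went the other way, with 31.8 FPKM in the 2 libraries and 24.6 FPKM in the other 4, as did Cxxc4, with 3.68 FPKM in the 2 libraries and 3.12 FPKM in the other 4. These groups of libraries were defined from the expression values themselves, so the differences are descriptions without a test.

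The split ran along the base composition of the transcripts. Across 11811 tested genes, the log2 difference between the 2 libraries and the other 4 had a Spearman correlation of −0.75 with the GC content of the longest transcript and of 0.13 with its length; all of these points share the same 6 libraries. Tet3, Idh2 and Cxxc5, lower in the 2 libraries, had transcripts of 53.4%, 55.4% and 55.3% GC. Idh1 and Cxxc4, higher in them, had 43.8% and 44.4%, and the median gene had 50.2%. Tet2 and Tdg, with 45.4% and 47.9% GC, under the median, averaged lower in the 2 libraries, by log2 differences of −0.15 and −0.14. Of the 2, only wild-type replicate 1 was low, at 7.26 FPKM of Tet2 and 4.17 FPKM of Tdg. Tet1-deficient replicate 1 had 10.3 FPKM of Tet2, inside the range of the other 4 (8.92 to 10.5). Its 6.83 FPKM of Tdg lay above their range (5.47 to 6.50). When each library's trend on GC content and length was removed, the log2 difference of the 2 libraries from the other 4 was −0.57 for Tet3, which had been −0.84 before, −0.33 for Idh2 (−0.58 before), −0.13 for Cxxc5 (−0.34 before), 0.09 for Idh1 (0.36 before) and 0.0029 for Cxxc4 (0.18 before). The size grew for Tet2, to −0.24 (−0.15 before), for Tdg, to −0.20 (−0.14 before), and for Smug1, to 0.09 (0.06 before), and the sign turned for Mbd4, to −0.12 (0.13 before). For Tet1 it was −0.0030 (0.10 before). The 2 libraries also differed from the other 4, without overlap, in the summed markers of astrocytes (572 to 623 FPKM against 476 to 520 FPKM), microglia (65.3 to 68.6 against 59.4 to 64.3) and oligodendrocytes (2818 to 3039 against 3123 to 3647). The sums of all other listed cell types overlapped, while 63.5% of single tested genes did not. Markers of 1 list could go opposite ways. Of the astrocyte list, Aqp4 (41.4% GC) was higher in the 2 libraries, by a log2 difference of 0.93. Aldh1l1 (54.4% GC), of the same list, was lower, by −0.45. The part of cell types in the levels of the members was not tested.

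**Figure D4:**
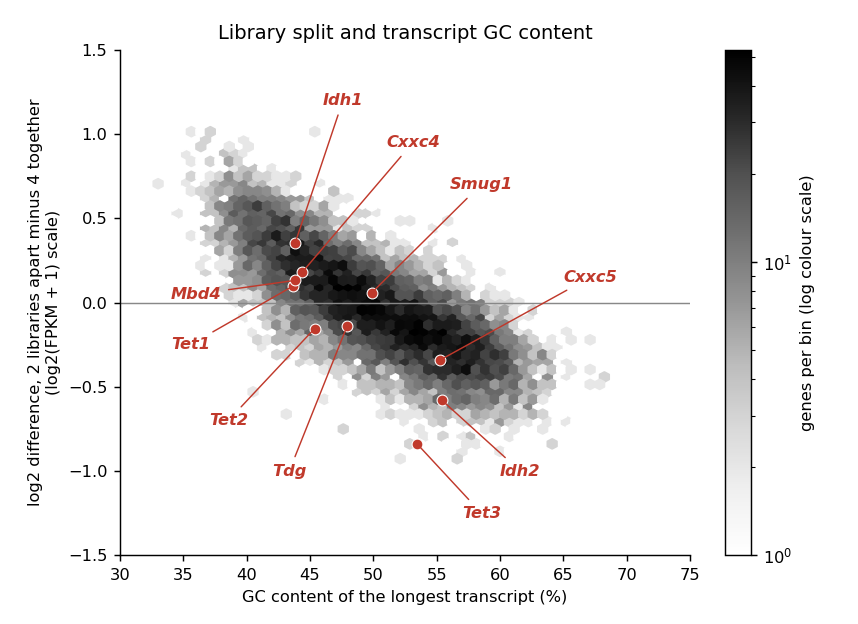
Log2 difference between the 2 libraries apart on the first component (replicate 1 of each genotype) and the other 4, against the GC content of each gene's longest transcript. Grey shading counts 11777 tested genes per bin on a log colour scale, with 34 genes beyond the axis, and red points are the 10 members. Tet3 at −0.84 lies below the bulk of genes of like GC content.

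Seizure-response genes overlapped between the genotypes. The summed FPKM of 6 immediate early genes, switched on rapidly when neurons fire, ran from 355 to 522 in Tet1-deficient and from 393 to 579 in wild-type libraries. Choroid plexus markers, carried by tissue next to the hippocampus, ran from 9.38 to 195 FPKM in Tet1-deficient and from 7.49 to 302 FPKM in wild-type libraries. The other listed cell types, apart from the list of 5 general neuronal markers, likewise overlapped between the genotypes in their summed FPKM.

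Genes whose values across the 6 libraries ran most like each TET gene were picked from all 12533 tested by Pearson correlation of log2(FPKM + 1), as a description of these libraries. For Tet1 they were Mfsd10 (r = 0.986) and Runx1t1 (r = 0.984), for Tet2 1700003D09Rik (r = 0.987) and Sarnp (r = 0.983), and for Tet3 Zfp180 (r = 0.997) and Nrip1 (r = 0.996). Correlations above 0.95 were reached by 13 genes for Tet1, 29 for Tet2 and 157 for Tet3. With 6 points and so many candidates, high correlations are frequent, and those of Tet3 share the library split: Nrip1 had 8.53 and 7.16 FPKM in the 2 libraries, against 8.58 to 9.64 FPKM in the other 4.

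In the wider pathway 0 genes passed the threshold as well. Of 17 tested genes of repair after base removal, 13 had a positive and 4 a negative log2 difference, 0 passed the limma threshold and 0 had an unadjusted p under 0.05. Their median was 0.03, against 0.01 over all tested genes. The glycosylase gene Neil1 had the smallest p, with 3.03 ± 0.470 FPKM in Tet1-deficient and 2.42 ± 0.399 FPKM in wild-type libraries (SD, n = 3 each, unadjusted p = 0.117). Polb, the repair polymerase, came next, with 26.0 ± 2.65 FPKM in Tet1-deficient and 24.1 ± 1.60 FPKM in wild-type libraries.

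Among 27 tested genes of 2-oxoglutarate and cofactor supply, 13 had a positive and 14 a negative log2 difference, with a median of −0.00033, and 0 passed. The alanine aminotransferase gene Gpt, which makes 2-oxoglutarate interconvertible with glutamate, was the 1 gene of these lists with an unadjusted p under 0.05. It measured 4.49 ± 0.234 FPKM in Tet1-deficient and 5.64 ± 0.792 FPKM in wild-type libraries (SD, n = 3 each, log2 difference −0.27, unadjusted p = 0.0493, adjusted p 1.00). Ogdh, of the complex that consumes 2-oxoglutarate in mitochondria, measured 42.5 ± 1.50 FPKM in Tet1-deficient and 47.1 ± 1.32 FPKM in wild-type libraries (unadjusted p = 0.119). In Gpt and Ogdh the libraries of the genotypes did not overlap, as in 3 of the 27 genes of the list, against 4.13% of all tested genes.

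The remaining lists also had 0 genes past the threshold and 0 under an unadjusted p of 0.05. Of 21 TET regulators and binding partners 12 were positive and 9 negative (median log2 difference 0.02), of 11 DNA methylation writers and readers 6 and 5 (0.0033), of 8 other CXXC zinc finger genes 4 and 4 (−0.0025), and of 36 other dioxygenases that use iron and 2-oxoglutarate 12 and 24 (−0.02). Their smallest unadjusted p-values were 0.118 for the zinc finger regulator gene Sall1 (log2 difference −0.17), 0.0611 for the methyl-CpG reader gene Zbtb38 (−0.22), 0.407 for Dnmt1 (−0.15), which stands in both the CXXC list and that of writers and readers, and 0.230 for Alkbh4 (−0.14). Mgea5, which removes the sugar that OGT adds to proteins, had 55.1 ± 1.92 FPKM in Tet1-deficient and 52.2 ± 2.72 FPKM in wild-type libraries. Kdm2b, a histone demethylase gene with a CXXC domain, had 12.1 ± 2.50 FPKM in Tet1-deficient and 11.5 ± 1.91 FPKM in wild-type libraries. The RNA demethylase gene Alkbh5 had 13.4 ± 0.194 FPKM in Tet1-deficient and 14.4 ± 0.560 FPKM in wild-type libraries (SD, n = 3 each). The genotypes did not overlap in 1 of the 21 TET regulators and binding partners (Sall1) and 1 of the 11 writers and readers (Zbtb38). The same held for 1 of the 36 other dioxygenases (Alkbh5), 0 of the 8 CXXC genes and 0 of the 17 genes of repair after base removal.

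**Figure D5:**
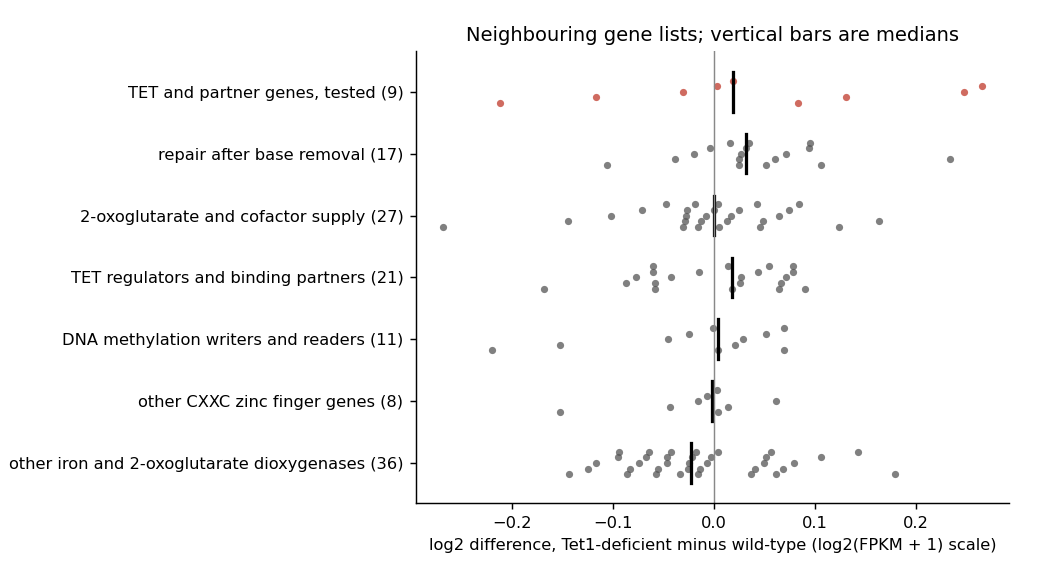
Log2 difference, Tet1-deficient minus wild-type, of each tested gene in 7 lists, with the number of genes in brackets; vertical bars are list medians. The 9 tested TET and partner genes run from −0.21 (Mbd4) to 0.27 (Tdg), and the medians of all 7 lists lie between −0.02 and 0.03.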

How the data were processed

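Gene expression was measured by RNA sequencing of whole hippocampus in 3 Tet1-deficient and 3 wild-type libraries. The authors deposited FPKM values per gene. The submitters' processing notes name TopHat2 2.0.9, Cufflinks 2.1.1 and mm10, and neither they nor the labels give the annotation, strand setting or treatment of multiply mapping reads. FPKM carries no read depth, so precision comes from the spread between libraries alone.

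Groups follow the genotype label, and replicate numbers are names. Genes that averaged 1 FPKM or more were fitted with limma 3.58.1 in R 4.3.3 (intensity trend, pseudocount 1 FPKM, no covariate), after a test on simulated data. Tet1 was also tested by exact permutation. Named genes were the 10 members, the 2 smallest p-values of each pathway list and the 2 genes most like each TET gene. Gm9855, Glt8d2 and B230319C09Rik were chosen after their values were seen, because they share sequence or strand with members. Members and lists were chosen with earlier results of these data known. Exons, gene positions, GC content and similar transcripts (BLAST, at least 95% identity over 200 nucleotides) came from GENCODE M21 on GRCm38. The alternatives were another pseudocount, no filter, 2 normalizations, no trend, library weights, a threshold of 0.1 and leaving out each library. Added after the data were seen were the library split as a term, the 4 libraries alone, and removal of GC and length trends (splines of 5 degrees of freedom).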

Additional observations from a re-analysis of the deposited data

How the results depend on the processing

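In each of the 16 alternatives 0 of the 10 members passed the threshold. Tet1 and Mbd4 stayed lower, and Tet2 and Tdg higher, in Tet1-deficient hippocampus in all 16, with log2 differences from −0.28 to −0.09, −0.33 to −0.14, 0.13 to 0.32 and 0.10 to 0.36. The −0.28 of Tet1 and the −0.33 of Mbd4 came with a pseudocount of 0.1 FPKM, which is another scale. With 1 FPKM their lowest values were −0.20 and −0.27. The threshold of 0.1, no filter, no trend and the split as a term leave the difference itself unchanged, so their sign could not turn. Of the 160 pairs of member and alternative, the sign turned in 17, all of them in the other 6 members. With library weights Tet3 was −0.30 and Cxxc4 0.049. In the 4 libraries that lie together Tet3 was −0.18 and Cxxc4 0.046. Quantile normalization gave −0.020 for Idh1 and removal of GC and length trends −0.033. With 1 library left out Tet3 ran from −0.30 to 0.35, Smug1 from −0.044 to 0.058, Idh1 from −0.094 to 0.14, Idh2 from −0.10 to 0.29, Cxxc4 from −0.083 to 0.068 and Cxxc5 from −0.24 to 0.0079. Over all genes the 4 calls became 59 under library weights, 12 in the 4 libraries, 8 once the split entered as a term, and 0 to 6 with 1 library left out (0 without Tet1-deficient replicate 2 or wild-type replicate 3). The difference in Tet1 mean ran from −0.25 to −0.12 FPKM with 1 library left out. The difference in Tet3 share, −0.841 percentage points, ran from −6.21 to 2.15. The cause of these shifts was not tested. No paired analysis was possible because the replicate numbers follow accession order and only name the libraries, and the title codes of the genotypes share only 1 number, with no stated meaning. Read depth is unknown, so the counting error of the scarce genes Tet1 and Mbd4 cannot be given.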
